A study of Mus musculus with 40 samples.

Results

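The genes described here were the TREM and TREM-like receptor genes that share a cluster on mouse chromosome 17 with *Trem2*, namely *Treml1*, *Treml2*, *Treml4*, *Trem1* and *Trem3*. They were chosen by gene name, which gave 5 of the 43346 genes in the count table. The 40 libraries, 1 per mouse, hold poly-A RNA of the cortex and form 4 groups of 10, each of 5 females and 5 males. The non-amyloid cohort held WT mice (Trem2 +/+) and mice homozygous for the *Trem2* H157Y knock-in (Hom) at 6 months of age. The amyloid cohort held the same genotypes at 8.5 months, all of them also hemizygous for the 5xFAD transgenes, which are driven by the Thy1 promoter in neurons and lead to amyloid deposits. Age and 5xFAD therefore differ together between the cohorts and cannot be told apart. The knock-in was made in B6/CBA zygotes and, unless a different founder is named, the study used offspring of founder 1, so that the edited allele and any linked chromosome 17 alleles of that founder are inherited together and cannot be told apart either. Hom and WT mice of a cohort were littermates.

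Receptors of the TREM family carry 1 immunoglobulin-like domain and sit mainly on myeloid cells. TREM1, TREM2 and TREM3 lack a signalling tail of their own and pair with the adaptor encoded by *Tyrobp*, which recruits the kinase SYK. TREML1 is stored in platelet granules and carries an inhibitory tail motif that binds SHP phosphatases, TREML2 is found on B cells, neutrophils and macrophages, and TREML4 is found on monocytes, macrophages and dendritic cells. In the brain TREM2 is the member best known, as a lipid-sensing receptor of microglia, and human variants near *TREML2* and in *TREM2* have been studied for Alzheimer's disease risk.

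In the coordinates of mm10 the genes follow each other on the plus strand, and no other gene of the count table overlapped them on either strand. *Trem1* (ENSMUSG00000042265) lies at chromosome 17 from 48232768 to 48246924, *Trem3* (ENSMUSG00000041754) from 48247777 to 48258841 and *Treml4* (ENSMUSG00000051682) from 48264295 to 48275360. *Treml2* (ENSMUSG00000071068), from 48300038 to 48312534, starts 46 kb before the start of *Trem2*. *Treml1* (ENSMUSG00000023993), from 48359916 to 48367174, is the single member on the other side and starts 14 kb after the start of *Trem2* (48346401 to 48354147).

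The promoters of *Treml1*, the member that rose, and of *Trem2*, its neighbour that did not, are shown as a description of the reference sequence. Any part of these sequences in the difference between Hom and WT mice was not tested. RefSeq (GRCm38.p6) gave promoters for 3 of the 5 members, *Trem1*, *Treml4* and *Treml1*, and none was available for *Trem3* or for *Treml2*, the member that fell. The 250 bases before each start, read 5′ to 3′ on the plus strand, are chr17:48359666-48359915 for *Treml1* and chr17:48346151-48346400 for *Trem2*, and capitals mark GAGGAA, or its reverse complement, the core bound by the myeloid factor PU.1.
Treml1: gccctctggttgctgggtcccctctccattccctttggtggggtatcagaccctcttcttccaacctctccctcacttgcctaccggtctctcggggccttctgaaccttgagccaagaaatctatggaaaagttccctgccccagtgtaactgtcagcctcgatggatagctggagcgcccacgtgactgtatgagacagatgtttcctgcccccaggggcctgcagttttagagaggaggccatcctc
Trem2: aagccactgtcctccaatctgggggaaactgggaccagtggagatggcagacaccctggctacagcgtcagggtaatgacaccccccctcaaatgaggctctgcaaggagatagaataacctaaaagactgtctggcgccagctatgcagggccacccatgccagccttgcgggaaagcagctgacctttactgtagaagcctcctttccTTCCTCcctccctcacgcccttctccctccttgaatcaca
The core was found once in the *Trem2* window, once in that of *Trem1* and at 2 places in that of *Treml4*, and these letters were not in the *Treml1* window. Of 32851 promoters of the same length, 23.3% held it on either strand. The GATA core AGATAA of megakaryocyte and erythroid genes was in none of these 4 windows and in 3281 of all promoters. The RUNX core TGTGGT was in none of the 4 either, and in 4614 of all promoters. The AP-1 motif TGANTCA, held by 6.7% of all promoters, was in the *Trem2* window alone of the 4, starting 9 bases before the gene's start, and is not in capitals.

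Library totals ranged from 41646271 to 105903846 counts (median 77193387). The lowest was amyloid Hom replicate 19, a female, which also had 0.411% of its counts on 175 genes lying mostly under a stronger gene of the opposite strand, against 0.00600% to 0.00783% in the other 39 libraries. The study left out 1 amyloid Hom female that it did not name, and all 10 were used here. A single non-amyloid WT library, replicate 24, had a summed level of 24.3 CPM (counts scaled to the library's total) over 10 neutrophil genes, against at most 0.846 CPM in the other WT mice of that cohort.

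All members were rare transcripts in the cortex. *Treml2* had a mean of 91.6 counts per library, *Treml1* 17.7, *Trem3* 6.68, *Treml4* 5.0 and *Trem1* 1.25, whereas *Trem2* had 2283. The filter of at least 10 counts in at least 4 libraries kept 4 of the 5 members. *Treml2* reached 10 counts in 39 libraries, *Treml1* in 25, *Trem3* in 6, *Treml4* in 5 and *Trem1* in none.

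Per kilobase of gene model, the order of the levels differed between genotypes. In amyloid WT mice *Trem2* led at 12.6 ± 4.94 CPM per kb (mean ± SD, n = 10), followed by *Treml2* at 0.672 ± 0.344, *Trem3* at 0.0741 ± 0.0329, *Treml1* at 0.0689 ± 0.0315, *Treml4* at 0.0304 ± 0.0166 and *Trem1* at 0.0144 ± 0.0114. In amyloid Hom mice *Treml1* came second at 0.247 ± 0.0716 CPM per kb, ahead of *Treml2* at 0.167 ± 0.0850 in 9 of 10 mice. The same exchange of places was seen in the non-amyloid cohort, where *Treml2* came second in WT mice at 0.134 ± 0.0375 CPM per kb and *Treml1* came second in Hom mice at 0.328 ± 0.0972, above *Trem3* in 10 of 10 mice. *Trem3* and *Treml1* did not separate in WT mice, since *Trem3* was the higher in 6 of 10 mice of either cohort.

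**Figure D1:**
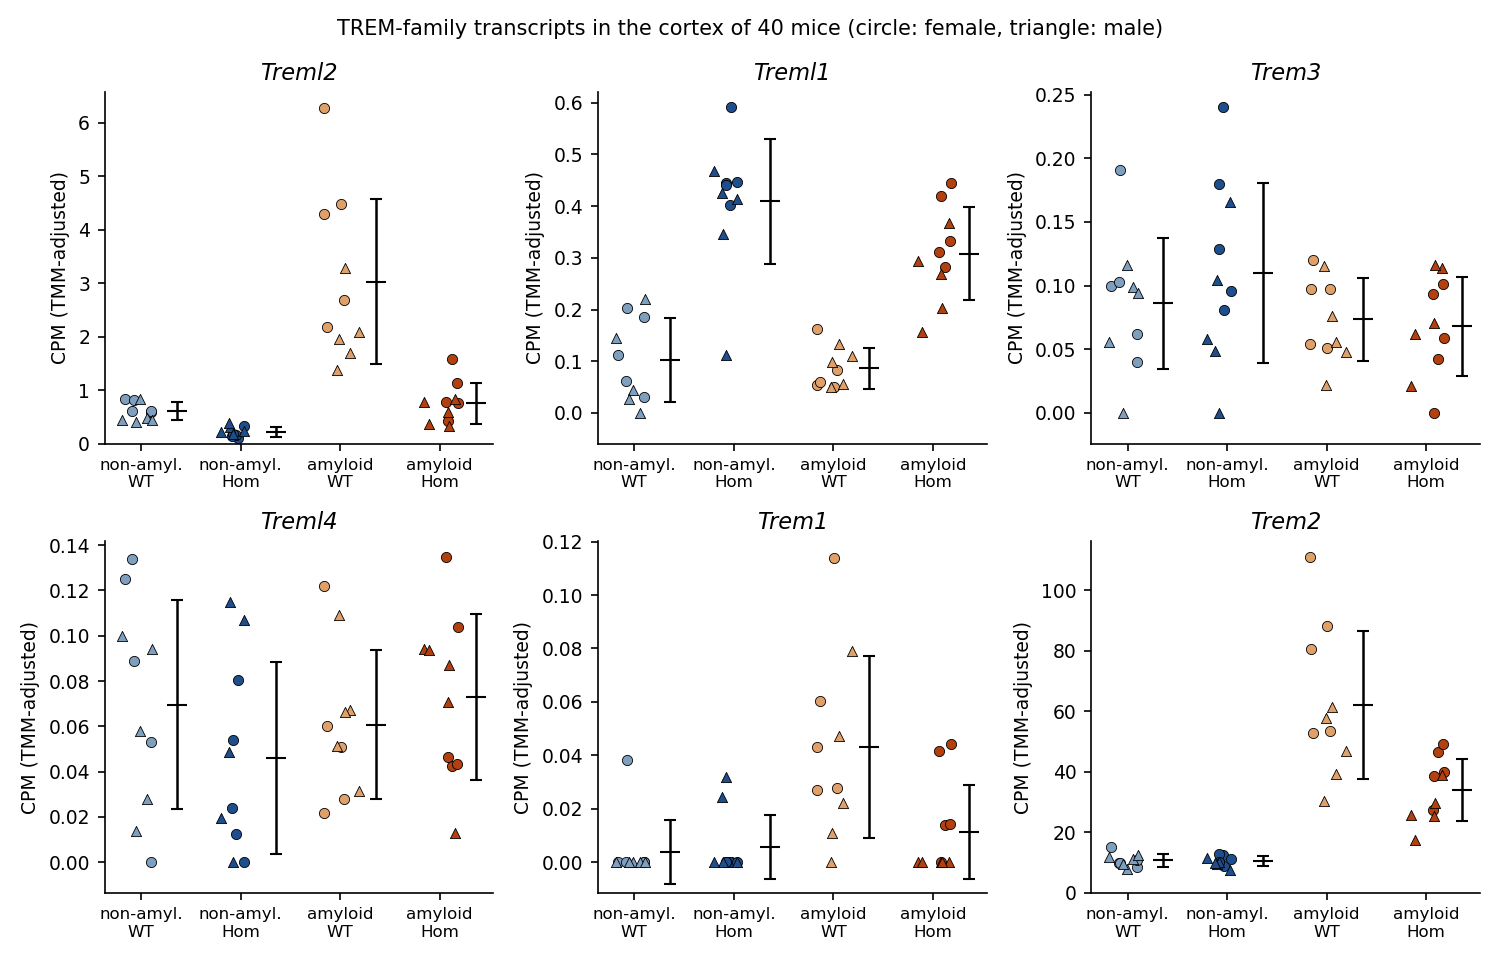
CPM scaled to the TMM-adjusted library size (y axis, a scale of its own for each gene) of the 5 members and of *Trem2* in each mouse, by group (x axis). Circles are females, triangles are males, and the black bars are the mean and SD of 10 mice. All 10 non-amyloid Hom mice lie below every non-amyloid WT mouse for *Treml2*, and 9 of 10 Hom mice lie above every WT mouse for *Treml1* in each cohort.

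*Treml2* was lower in Hom than in WT mice in both cohorts. In the amyloid cohort its level ran from 1.37 to 6.27 CPM in WT mice (median 2.43) and from 0.333 to 1.59 CPM in Hom mice (median 0.762). The groups overlapped in a single mouse from each side, and 9 of 10 Hom mice lay below every WT mouse. The mean fell from 3.03 ± 1.55 CPM to 0.753 ± 0.383 CPM (SD, n = 10 each), a log2 fold change of −2.0 ± 0.30 (SE, 95% confidence interval −2.62 to −1.37), or 4.0-fold lower, with an adjusted p of 0.00586 by edgeR's quasi-likelihood test. Without replicate 19 the log2 fold change was −1.93 (adjusted p = 0.00698). In bulk cortex, fewer cells that express a gene and less of its RNA per cell cannot be told apart.

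In the non-amyloid cohort *Treml2* ran from 0.396 to 0.826 CPM in WT mice (median 0.601) and from 0.0940 to 0.376 CPM in Hom mice (median 0.200). These groups did not overlap. The mean fell from 0.602 ± 0.169 CPM to 0.221 ± 0.0906 CPM, a log2 fold change of −1.44 ± 0.22 (95% confidence interval −1.90 to −0.97, adjusted p = 0.00625), or 2.71-fold lower. Without replicate 24 it was −1.38 (adjusted p = 0.0194).

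*Treml1* was higher in Hom mice. In the amyloid cohort it ran from 0.0508 to 0.163 CPM in WT mice (median 0.0718, 4 to 14 counts per library) and from 0.156 to 0.444 CPM in Hom mice (median 0.302, 10 to 30 counts). In this cohort 9 of 10 Hom mice were above every WT mouse and the remaining Hom mouse was below a single WT mouse. The log2 fold change was 1.82 ± 0.25 (95% confidence interval 1.29 to 2.34, adjusted p = 0.00245), or 3.52-fold higher, and it was 1.76 without replicate 19 (adjusted p = 0.00263). The summed counts were 221 in Hom and 70 in WT mice, 0.304 CPM of the pooled library (exact 95% Poisson interval 0.266 to 0.347) against 0.0865 CPM (0.0674 to 0.109), where the intervals cover counting error only.

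In the non-amyloid cohort *Treml1* ran from 0 to 0.220 CPM in WT mice (median 0.0871) and from 0.112 to 0.591 CPM in Hom mice (median 0.433). Again 9 of 10 Hom mice were above every WT mouse, and the exception was replicate 23, with 7 counts. The log2 fold change of 1.98 ± 0.39 (95% confidence interval 1.18 to 2.78, unadjusted p = 3.6e-05) did not pass the threshold over all genes (adjusted p = 0.0954). Leaving out replicate 23 gave 2.08 with an adjusted p of 0.0369, while leaving out replicate 24 gave 2.14 with an adjusted p of 0.0526. Over the 20 libraries left out in turn the adjusted p ran from 0.0369 to 0.252, and 19 of these fits did not call *Treml1*.

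Of the 4 members tested, 2 were called in the amyloid cohort, *Treml2* and *Treml1*, and 1 in the non-amyloid cohort, *Treml2*. A gene was called where its adjusted p was below 0.05 and its log2 fold change was beyond 0.25 in either direction, which 0.0753% of 21253 genes reached in the amyloid cohort (16 genes) and 0.0329% in the non-amyloid cohort (7 genes). By p, *Treml1* and *Treml2* ranked 3 and 4 in the amyloid cohort, and *Treml2* and *Treml1* ranked 5 and 8 in the non-amyloid cohort.

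*Trem3* and *Treml4* showed no difference that could be detected at their depth. In amyloid WT mice *Trem3* ran from 0.0218 to 0.120 CPM (median 0.0658) and in amyloid Hom mice from 0 to 0.116 CPM (median 0.0666). The groups overlapped over most of their range, and the log2 fold change was −0.08 (95% confidence interval −0.86 to 0.71, adjusted p = 0.952). Its non-amyloid log2 fold change was 0.36 (−0.57 to 1.29, adjusted p = 0.965). *Treml4* ran from 0.0216 to 0.122 CPM in amyloid WT mice (median 0.0557) and from 0.0127 to 0.135 CPM in amyloid Hom mice (median 0.0789), with a log2 fold change of 0.27 (−0.48 to 1.02, adjusted p = 0.790). The non-amyloid *Treml4* log2 fold change was −0.58 (−1.69 to 0.53, adjusted p = 0.965). Their intervals were wide, since no library of the amyloid cohort held more than 13 counts of either gene.

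Other genes that start within 200 kb of *Trem2* set the members apart only in part. *Trem2* itself was lower in amyloid Hom than in amyloid WT mice by −0.87 ± 0.21 on the log2 scale, which missed the threshold (adjusted p = 0.0763), and by −0.04 ± 0.11 in the non-amyloid cohort (adjusted p = 0.981). The study, which left out an amyloid Hom female, did list *Trem2* among its genes lower in amyloid Hom mice. It also reported that fall by qPCR. *B430306N03Rik*, which RefSeq also lists as Treml6 and which lies between *Treml2* and *Trem2*, had log2 fold changes of −0.83 ± 0.29 (adjusted p = 0.243) and 0.19 ± 0.31 (adjusted p = 0.970). Beyond *Treml1*, *Nfya*, a subunit of the CCAAT-binding factor, had −0.32 ± 0.08 (adjusted p = 0.0852) in the amyloid cohort and −0.06 ± 0.06 (adjusted p = 0.965) in the other. *Oard1*, an ADP-ribose hydrolase, had −0.02 ± 0.08 and −0.09 ± 0.06 (adjusted p = 0.948 and 0.965). *Apobec2* had 0.90 ± 0.50 and 0.64 ± 0.39 (adjusted p = 0.575 and 0.965), and *Unc5cl* had 0.58 ± 0.38 and 0.80 ± 0.29 (adjusted p = 0.627 and 0.965). *A530064D06Rik* and *Tspo2* did not pass the filter.

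**Figure D2:**
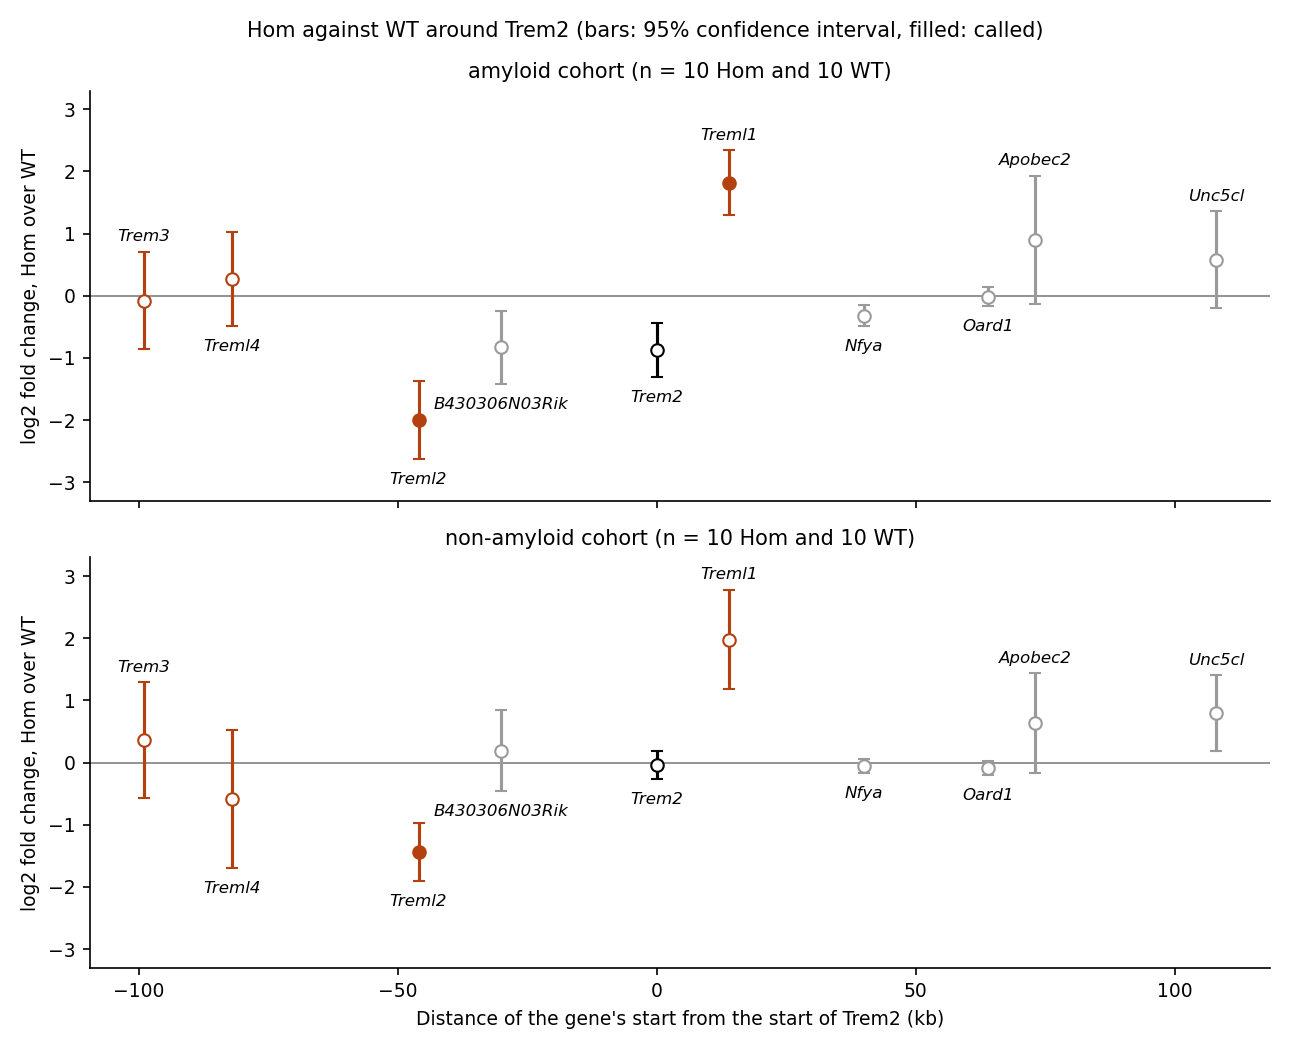
Log2 fold change of Hom over WT (y axis) for the tested genes that start within 200 kb of *Trem2*, by the distance of their start from that of *Trem2* in kb (x axis), in each cohort. Bars are 95% confidence intervals, filled points were called, and members are in red. *Treml2* lies at −2.0 and −1.44 and *Treml1* at 1.82 and 1.98, while *Trem2* between them lies at −0.87 and −0.04.

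The genotype effects did not differ detectably between cohorts. In the interaction of genotype and cohort, 0 of the 4 members and 0% of 21253 genes passed the threshold by edgeR, with 2189 genes at an unadjusted p under 0.05, and DESeq2 called 38 genes. The difference between the log2 fold changes was −0.56 for *Treml2* (95% confidence interval −1.33 to 0.22, adjusted p = 0.584) and −0.16 for *Treml1* (−1.16 to 0.84, adjusted p = 0.912), or −0.49 and −0.21 without replicate 19 (adjusted p = 0.696 and 0.887). It was −0.43 for *Trem3* (adjusted p = 0.779) and 0.84 for *Treml4* (adjusted p = 0.616).

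The amyloid cohort differed from the non-amyloid cohort in *Treml2*, as it did in *Trem2*. All 10 amyloid WT mice were above every non-amyloid WT mouse, and *Treml2* was 5.02-fold higher (log2 fold change 2.33 ± 0.25, adjusted p = 4.7e-07), or 2.39 on the log2 scale without replicate 24 (adjusted p = 1.2e-06). In Hom mice 8 of 10 amyloid mice were above every non-amyloid mouse and *Treml2* was 3.37-fold higher (1.75 ± 0.29, adjusted p = 3.2e-04), or 1.82 on the log2 scale without replicate 19 (adjusted p = 1.6e-04). It was 1 of 4 members called in each comparison, where 7.31% of genes were called in WT mice and 5.83% in Hom mice. *Trem2* rose by 2.54 ± 0.19 in WT mice and 1.69 ± 0.15 in Hom mice on the same scale. The 4 groups share mice across these comparisons, so that they are not independent of the Hom and WT contrasts.

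*Treml1* did not show the cohort difference. Its log2 fold change was −0.26 (95% confidence interval −1.17 to 0.65, adjusted p = 0.821) in WT mice and −0.43 (−0.89 to 0.03, adjusted p = 0.237) in Hom mice. *Trem3* had −0.23 and −0.68 (adjusted p = 0.819 and 0.359), and *Treml4* had −0.21 and 0.62 (adjusted p = 0.850 and 0.455).

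*Trem1*, the amplifier of inflammatory responses in neutrophils and monocytes, did not pass the filter, and its counts are given as such. Amyloid WT mice had 34 counts in all, from 0 to 9 per library, in 9 of 10 mice. Amyloid Hom mice had 9 counts in 4 mice, non-amyloid WT mice 3 counts in 1 mouse, and non-amyloid Hom mice 4 counts in 2 mice. Relative to library size, amyloid WT mice were 10.7 times the non-amyloid WT mice (exact 95% interval from counting error 3.35 to 54.2) and 3.39 times the amyloid Hom mice (1.59 to 8.03). All 3 counts of the non-amyloid WT mice came from replicate 24, the library high in neutrophil genes. Without it the other 9 mice had 0 counts. With a floor of 3 counts over those 9 mice put in place of 0, amyloid WT mice were 9.57-fold higher, a value that depends on the floor. In an edgeR fit with no filter on low counts, *Trem1* was called between the WT groups (log2 fold change 2.99, adjusted p = 0.0160, where 4.48% of genes were called) and was not called between amyloid Hom and WT mice (−1.71, adjusted p = 0.330). Leaving out replicate 24 took away every count of the non-amyloid WT mice, so that this difference could only grow. The same unfiltered edgeR fit then gave 4.79 (adjusted p = 0.00239), which is no check of the call.

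**Figure D3:**
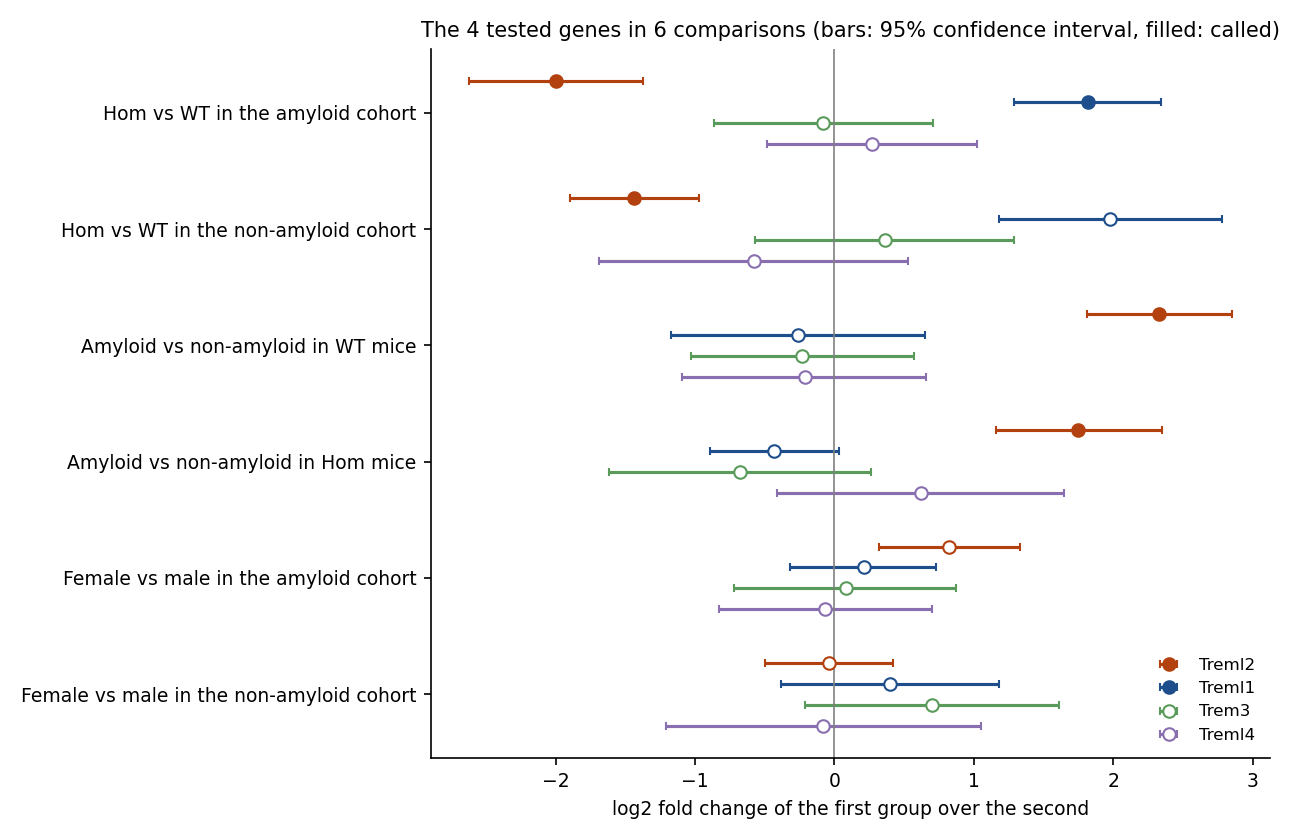
Log2 fold change of the first group over the second (x axis) for *Treml2*, *Treml1*, *Trem3* and *Treml4* in 6 comparisons (y axis), with 95% confidence intervals as bars and called values as filled points. The called values are those of *Treml2* in the first 4 comparisons and of *Treml1* in the first.

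Females of the amyloid cohort had more *Treml2* than males in both genotypes, by values that did not pass the threshold. Amyloid WT females had 2.18, 2.68, 4.29, 4.49 and 6.27 CPM and amyloid WT males 1.37, 1.70, 1.96, 2.09 and 3.28 CPM. Amyloid Hom females had 0.420, 0.755, 0.768, 1.13 and 1.59 CPM, the lowest being replicate 19, and amyloid Hom males 0.333, 0.358, 0.582, 0.774 and 0.824 CPM. The sexes overlapped in each genotype, and within each sex all Hom mice were below every WT mouse of that sex. With genotype in the model the female to male log2 fold change was 0.82 ± 0.24 (unadjusted p = 0.00258, adjusted p = 0.179), and 0.90 without replicate 19 (adjusted p = 0.0859). No member was called, where 0.240% of genes were. Non-amyloid WT females had 0.599, 0.603, 0.607, 0.813 and 0.825 CPM and WT males 0.396, 0.434, 0.440, 0.478 and 0.826 CPM. Non-amyloid Hom females had 0.0940, 0.132, 0.164, 0.172 and 0.319 CPM and Hom males 0.176, 0.224, 0.237, 0.311 and 0.376 CPM. The female mean was thus the higher in WT mice and the lower in Hom mice, a difference between genotypes that was not tested. Over both genotypes the value was −0.04 ± 0.22 (adjusted p = 0.997), again with no member called and 0.122% of genes called. The genotype effect on *Treml2* did not differ detectably between the sexes of the amyloid cohort (−0.24, 95% confidence interval −1.26 to 0.79, adjusted p = 0.913). Nor did that on *Treml1* (0.60, −0.47 to 1.66, adjusted p = 0.824), and 0% of genes were called by edgeR, with 1124 at an unadjusted p under 0.05.

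*Treml2* followed *Trem2* and the microglial genes across amyloid WT mice. Over the 10 amyloid WT mice the log2 CPM of *Treml2* and *Trem2* had a Pearson r of 0.96 (permutation p = 2.0e-05, adjusted p = 4.8e-04) and a Spearman rho of 0.93 (permutation p = 3.1e-04, adjusted p = 0.00704), and r was 0.92 without the 2 mice farthest from the median. With the mean of 15 microglial genes r was 0.95 (permutation p = 1.1e-04, adjusted p = 0.00132) and rho 0.92 (permutation p = 6.0e-04, adjusted p = 0.00704), and r was 0.89 without the 2 farthest mice. With sex means removed these r were 0.93 and 0.91. Among amyloid Hom mice r with *Trem2* was 0.64 (permutation p = 0.0453, adjusted p = 0.165), rho was 0.56 (permutation p = 0.0961, adjusted p = 0.257) and r without the 2 farthest mice was 0.63. Without replicate 19 r was 0.77 (permutation p = 0.0172, adjusted p = 0.0671 over 6 relations) and rho 0.67 (permutation p = 0.0594, adjusted p = 0.129). In the non-amyloid groups r with *Trem2* was −0.12 in WT mice (permutation p = 0.744) with rho −0.18 (permutation p = 0.633), and −0.16 in Hom mice (permutation p = 0.661) with rho −0.27 (permutation p = 0.449). These WT and Hom mice had 28 to 66 and 7 to 31 *Treml2* counts per library, against 107 to 461 in amyloid WT mice. Their *Trem2* SD was 19.9% and 15.2% of the mean, against 39.3% in amyloid WT mice. Fewer counts and a narrower range both lower r, so r cannot be set side by side between these groups. With the microglial mean r was 0.70 in amyloid Hom mice (permutation p = 0.0242, adjusted p = 0.116, rho = 0.58), 0.39 in non-amyloid WT mice (permutation p = 0.258, rho = 0.38) and −0.50 in non-amyloid Hom mice (permutation p = 0.143), where rho was −0.65 (permutation p = 0.0480, adjusted p = 0.257). Of the 24 relations computed, for *Treml2* and *Treml1* with 3 partners each in 4 groups, 3 passed an adjusted p of 0.05, all for *Treml2* in amyloid WT mice, and the differences between groups were not tested. By Pearson r the strongest of the *Treml1* relations was with *Trem2* in amyloid Hom mice (r = 0.71, permutation p = 0.0202, adjusted p = 0.116, rho = 0.61, permutation p = 0.0668, adjusted p = 0.257), where r was 0.42 without the 2 farthest mice. By Spearman rho it was with the microglial mean in non-amyloid WT mice (rho = 0.64, permutation p = 0.0549, adjusted p = 0.257, r = 0.64, permutation p = 0.0480, adjusted p = 0.165), where r was 0.55 without the 2 farthest mice.

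*Treml2* was also lower in Hom mice relative to these genes, in values examined after the first results were seen. Per kilobase, *Treml2* stood at 5.18% ± 0.748 of the *Trem2* level in amyloid WT mice and 2.42% ± 0.823 in amyloid Hom mice. It stood at 6.44% ± 2.48 in non-amyloid WT mice and 2.40% ± 1.11 in non-amyloid Hom mice. *Treml1* stood at 0.585% ± 0.226 of the *Trem2* level per kilobase in amyloid WT mice and 3.70% ± 0.830 in amyloid Hom mice, and the ranges, 0.229% to 0.933% and 2.40% to 4.53%, did not overlap. In non-amyloid mice the *Treml1* share had a median of 2.71% in WT mice (0% to 8.55%) and 16.1% in Hom mice (4.33% to 26.1%). The log2 CPM of *Treml2* minus the mean of the microglial genes was lower in Hom than in WT mice by a difference of −1.42 ± 0.21 in the amyloid cohort and −1.38 ± 0.22 in the non-amyloid cohort (permutation p = 2.0e-05 in each, the smallest these resamples give, adjusted p = 3.2e-05 over 8 tests), and in both cohorts 10 of 10 Hom mice were below every WT mouse. For *Treml1* the same difference was 2.15 ± 0.20 and 2.01 ± 0.35 (permutation p = 2.0e-05 and 6.0e-05, adjusted p = 3.2e-05 and 6.9e-05). Between non-amyloid Hom and WT mice the microglial list hardly moved (median −0.01 on the log2 scale). The non-amyloid differences for *Treml2* and *Treml1* thus largely repeated the contrasts given above and are not separate evidence. Their adjustment covers only 8 tests, examined after those results. Over all 21253 genes *Treml1* was not called in that cohort (edgeR adjusted p = 0.0954). In a different model, with the microglial mean as a covariate in the edgeR fit of the amyloid cohort, the *Treml2* log2 fold change was −0.94 ± 0.22 (unadjusted p = 4.1e-04, adjusted p = 1.0) and was no longer called. That fit called 2 of 21253 genes, so that the lost call tells little. *Treml1* was still called in it (2.16 ± 0.34, adjusted p = 0.0280). With the same covariate in the non-amyloid cohort *Treml2* was called (−1.43 ± 0.23, adjusted p = 0.0115).

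**Figure D4:**
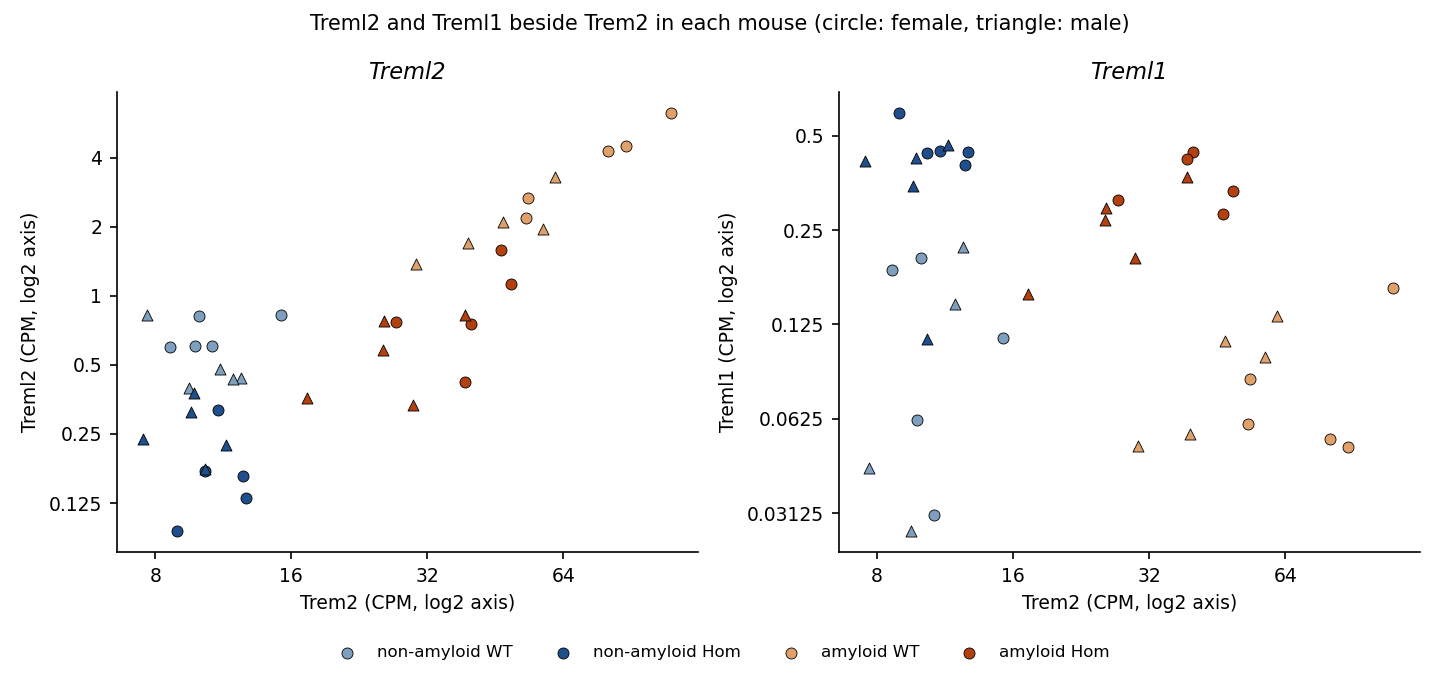
*Treml2* (left) and *Treml1* (right) against *Trem2* in each mouse, in CPM on log2 axes, coloured by group, with circles for females and triangles for males. In log2 CPM relative to *Trem2*, 9 of 10 amyloid Hom mice were below every amyloid WT mouse for *Treml2*, and 10 of 10 were above for *Treml1*. The *Trem2* levels overlap only in part, from 17.3 to 49.1 CPM in amyloid Hom mice and from 30.2 to 111 CPM in amyloid WT mice. A non-amyloid WT mouse with no *Treml1* count is not drawn.

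The genes most like each member over the 40 libraries were named by Pearson r of log2 CPM, as a description, since the libraries share groups. For *Treml2* they were *Cd37* and *Cd63* (r = 0.88), tetraspanins of leukocytes and of lysosomes, and *Tmem173*, *Pld4* and *Gusb* (r = 0.87), and with group means removed r was 0.62 to 0.74. For *Treml1* they were *Gm6368*, *Gm11110*, *Plcl2*, *Clic5* and *Sult6b1* (r = 0.60 to 0.66), and with group means removed r was −0.09 to 0.45. The last 4 of these lie on chromosome 17, which was not tested against the share of all genes there. *Treml2* and *Treml1* had an r of −0.48 over the 40 libraries and 0.18 within groups. The closest genes of *Trem3* and *Treml4* reached r of 0.58 to 0.66 from counts near the filter.

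Partners and effectors of the family were counted in the same comparisons. Of 28 genes of TREM adaptors and signalling, 18 were called higher in amyloid than in non-amyloid WT mice (median log2 fold change 1.02, against 0.00 over all genes, of which 6.21% were called higher), among them *Tyrobp*, the adaptor of TREM1, TREM2 and TREM3, by 2.77 ± 0.16 (adjusted p = 3.6e-11). Between amyloid Hom and WT mice 25 of the 28 had a negative log2 fold change (median −0.43, against 0.00 over all genes) and 1 was called, beside 0.0753% of all genes, *Ptpn6*, which encodes the phosphatase SHP-1 (−0.86 ± 0.16, adjusted p = 0.0402). *Trem2* is in this list too. *Tyrobp* had −0.90 ± 0.20 (adjusted p = 0.0599) and *Inpp5d*, the phosphatase SHIP1, −0.49 ± 0.11 (adjusted p = 0.0554). In the non-amyloid cohort 0 of the 28 were called by edgeR (median 0.03), beside 0.0329% of all genes. Of 8 genes for ligands and sheddases, 0 were called between Hom and WT mice of either cohort, beside the same shares of all genes. Between the WT groups 4 were called higher, beside 6.21% of all genes, the fibrinogen chains *Fga* (2.89 ± 0.81, adjusted p = 0.0273), *Fgb* and *Fgg*, which are reported partners of TREML1, and the sheddase *Adam17* (0.31 ± 0.07, adjusted p = 0.00744), which is named here after its value was seen.

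Markers of the cell types that carry these receptors are given beside the members. All 15 microglial genes had a negative log2 fold change between amyloid Hom and WT mice (median −0.56, 0 called), and their summed level ran from 873 to 1928 CPM in amyloid WT mice, from 684 to 1202 in amyloid Hom mice, from 431 to 602 in non-amyloid WT mice and from 476 to 574 in non-amyloid Hom mice. All 13 genes of plaque-associated microglia did too (median −0.77), and 1 was called, beside 0.0753% of all genes, *Gpnmb* (−1.61 ± 0.29, adjusted p = 0.0330). In the non-amyloid cohort, where *Treml2* also fell, 9 of the 15 and 11 of the 13 genes had a negative log2 fold change, and the medians of these lists were −0.01 and −0.06.

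Platelet genes did not rise as a list beside *Treml1*. The study perfused the mice with buffered saline before taking the brain, and how far this lowered the levels of blood-cell genes was not tested. Of 10 genes 8 were tested and 0 were called between Hom and WT mice, with medians of −0.22 in the amyloid cohort and −0.04 in the non-amyloid cohort. Over all genes 0.0753% and 0.0329% were called in these cohorts, so that 0 calls in so short a list tell little. Without *Gp1bb*, which held most of the counts, the summed level of the platelet genes ran from 2.15 to 4.67 CPM in amyloid WT mice, from 2.30 to 3.75 in amyloid Hom mice, from 2.39 to 4.06 in non-amyloid WT mice and from 2.45 to 4.28 in non-amyloid Hom mice. The platelet chemokine gene *Pf4* had medians of 0.515 CPM in amyloid WT mice and 0.435 CPM in amyloid Hom mice, and of 0.610 and 0.500 CPM in non-amyloid WT and Hom mice. *Ppbp*, also of platelets, was near 0, with medians of 0.0147 and 0.0219 CPM in amyloid WT and Hom mice. In non-amyloid WT and Hom mice its medians were 0.00556 and 0 CPM. Within groups r between *Treml1* and the mean of the platelet genes ran from −0.16 to 0.37, with adjusted permutation p of 0.508 to 0.970 over the 24 relations.

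For the blood cells that carry TREM1, TREML2 or TREML4, edgeR called 0 of 5 neutrophil, 0 of 8 monocyte and 0 of 4 B cell genes tested between Hom and WT mice of either cohort. Over all genes 0.0753% were called in the amyloid cohort and 0.0329% in the non-amyloid cohort, so that 0 calls in lists this short tell little about these cells. The median over the neutrophil genes tested was −0.78 on the log2 scale in the amyloid cohort and −2.72 in the non-amyloid cohort. Without replicate 24 the non-amyloid median was −0.02, again with 0 of 5 called by edgeR. *Ly6g*, the defining neutrophil marker, was at 0 in 9 of 10 mice of each Hom group and of non-amyloid WT mice, and in 5 of 10 amyloid WT mice. T cell, erythroid and cortical neuron genes gave 0 calls between Hom and WT mice as well, of 7, 5 and 7 tested, and the neuronal genes, with a summed level of 4653 to 5917 CPM over all libraries, matched the labelled tissue. The part of these cell types in the members' differences was not tested beyond these values.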

How the data were processed

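Cortical RNA of 40 mice was analysed from the gene counts the authors deposited. The counts are raw, without normalization, on mm10. The paper names MAP-RSeq, TopHat and Bowtie for alignment and featureCounts for counting, whereas the submitters' processing notes name STAR 2.5.2b, featureCounts 1.5.1 and edgeR, so that the aligner is uncertain, and the strand setting is not given in the sources used here. The table's gene lengths were used for CPM per kb.

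A gene was kept when 4 or more of the 40 libraries held 10 or more counts of it (21253 genes), as in the study. Counts were normalized by TMM, and tested with edgeR's quasi-likelihood test (edgeR 4.0.16, R 4.3.3) without covariates for Hom against WT. P-values were adjusted by Benjamini-Hochberg over all kept genes. The interaction used all 40 libraries, and the sex tests held genotype in the model. CPM values are counts over the TMM-adjusted total of all genes, and log2 CPM used a prior count of 2. Permutation tests used 100000 resamples and were two-sided (SciPy 1.17.1). In simulated counts for Hom against WT in the amyloid cohort (21037 genes), the test called 82 of 100 genes doubled or halved, 92 of 99 changed 4-fold and 5 unchanged genes. For the interaction with cohort (21067 genes) it called 64 of 99 doubled or halved, 77 of 98 changed 4-fold and 5 unchanged genes. The changed genes were drawn from all kept genes and outnumbered the 16 called in the amyloid cohort. These shares therefore do not give the recovery at the members' low counts. DESeq2 1.42.0 and limma 3.58.1 served as alternatives, with other settings and each library left out in turn. No library was a repeat of another: over the 180 pairs that share a group, chi-square per degree of freedom was 13.7 or more.

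The members, gene lists and settings were chosen with earlier results of these data known. Named are the 5 members in every comparison, *Trem2*, each gene starting within 200 kb of it, up to 4 genes of a list by lowest p in the amyloid cohort, defining markers, and the 5 genes most correlated with each member. A single count was worth 0.00944 to 0.0240 CPM, so that members with under 10 counts per library were limited by counting error. Strand-overlapping genes were found in GENCODE vM21, as genes with at least 50% of exon bases under an opposite-strand gene of at least 10 times their median level. The share of counts on rows naming no gene was 0.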

Additional observations from a re-analysis of the deposited data

Results flagged for a closer look

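*Treml1* in non-amyloid Hom replicate 23, a male, stood apart from the other 9 mice of its group, at 0.112 CPM beside 0.346 CPM in the next lowest mouse, a gap of 0.489 of the group's range against a critical value of 0.466. Of 16 groups of 10 examined for *Treml2*, *Treml1*, *Trem3* and *Treml4* this was the 1 that stood apart, and chance marks about 1 group in 20. *Treml2* in the same mouse was 0.176 CPM, within the range of its group.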

How the results depend on the processing

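*Treml2* and *Treml1* kept their direction between Hom and WT mice under every setting tried. In the amyloid cohort both were called under all settings but the microglial covariate, which left 1 of them called. In the non-amyloid cohort 2 were called under DESeq2, limma-voom, one fit of all 40 libraries and the microglial covariate, where *Treml1* had 1.99, 2.36, 1.97 and 2.12 on the log2 scale (adjusted p = 1.3e-04, 0.0316, 0.00360 and 0.0200). The remaining 5 of these 9 settings did not call *Treml1*, with adjusted p up to 0.101. With each library left out in turn the number called was 2 in the amyloid cohort and 1 to 2 in the non-amyloid cohort, the latter 2 without replicate 23. Between the WT groups, no filter on low counts gave 2 members called, since *Trem1* was then tested. It also gave 2 without replicate 24, which held every *Trem1* count of the non-amyloid WT mice. The *Trem3* value in the amyloid cohort changed sign under limma-voom (0.04) and with sex as a covariate without replicate 19 (0.06), and ran from −0.18 to 0.05 over the libraries left out.

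Over all genes the amyloid cohort gave 16 calls between Hom and WT mice, but 303 by DESeq2, 251 with sex as a covariate, 200 with sex and without replicate 19, 25 by limma-voom, 66 after filterByExpr, 612 in one fit of all 40 libraries, 9 without a filter, 2 with the microglial covariate and 6 to 204 with a library left out. The non-amyloid cohort gave 7, 11 by DESeq2 and 4 to 8 with a library left out. The interaction with cohort gave 0, 38 by DESeq2 and 12 with sex. Female against male in the amyloid cohort gave 51, 26 without a filter and 89 without replicate 19. The cause of these differences was not tested. The settings that combine sex with leaving out replicate 19, or leave it out of the sex comparisons and correlations, or leave replicate 24 out of the WT groups, were chosen after seeing the data. No paired analysis was possible because each replicate number names 1 mouse and the labels used here give no litter.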
